A study of Mus musculus with 32 samples.

Results

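Gene expression was compared between germ cells of 16 dpp and 10 dpp C57BL/6J male mice (dpp, days post partum), the ages that lie after and before the first spermatocytes pass through pachynema. The comparison used 10 of the 32 samples of the series, 5 mice at 10 dpp and 5 at 16 dpp, and every gene of the deposited gene table, 20368 in all. Each sample was a separate untreated mouse, whose mixed germ cells were taken from both testes after enzymatic digestion and filtering, and poly-A RNA was sequenced. The other 18 juvenile mice, of 8, 12, 14 and 18 dpp, entered the fit for their spread. Levels are also cited from 4 adult samples at 9 weeks of age, in which sedimentation had enriched pachytene spermatocytes from 6 C57BL/6J males per sample.

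In the male mouse, spermatogonia enter meiosis in a first wave shortly after birth. In leptonema and zygonema the chromosomes form axes, break and begin to pair; in pachynema they are fully synapsed and recombine, the X and Y are packed into the silenced sex body, and a large programme of genes for the later sperm is switched on. Crossovers mature and the cell prepares for the meiotic divisions before the synaptonemal complex comes apart in diplonema. Because the first wave advances roughly in step, an older juvenile testis holds later stages than a younger one.

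Values are TPM (transcript abundance corrected for length and scaled to the same total in every sample), so a gene can fall because others rise. In these bulk samples, fewer cells of a type and less RNA per cell cannot be told apart. TPM keeps no read number, so the depth is unknown, and all errors are the spread between mice. Differences are 16 dpp minus 10 dpp on the log2(TPM + 1) scale, with a pseudocount of 1, and understate the change of genes at low levels. A gene entered the table by reaching 3 TPM in at least 1 juvenile mouse of any age, so a gene near 0 at 10 dpp is in it only through ages at which it was higher. A gene is said to have risen or fallen where limma gave an adjusted p under 0.05.

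The samples were close within an age, with Pearson's r of log2(TPM + 1) across genes between 0.975 and 0.983 for pairs of 10 dpp mice, between 0.967 and 0.977 for pairs of 16 dpp mice and between 0.872 and 0.932 across the ages. The 16 dpp mice did not stand level. Of the genes that rose by at least 1 log2 unit, mouse 1 of 16 dpp held the highest 16 dpp value in 66.2%, mouse 5 in 16.6%, and mouse 3 held the lowest in 43.7%. Of the 346 genes that rose by at least 3, mouse 1 was highest in 87.3%. The labels call the samples germ cells, and the germ cell helicase Ddx4 was at 109 to 113 TPM at 10 dpp and 215 to 337 at 16 dpp. They also held RNA of Sertoli cells, the somatic cells that surround the germ cells: the summed TPM of 19 Sertoli markers was 15341 to 16186 at 10 dpp and 11707 to 15095 at 16 dpp. By the sample labels, same-numbered mice of the ages carried the same index sequence, and no label names a sequencing batch.

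More genes rose than fell, except under quantile normalization, and the rises were larger. Of 20368 genes, 10512 were called (51.6%): 5638 rose, or 27.7% of those tested, and 4874 fell, or 23.9%. The median of the rises was 0.74 log2 units and that of the falls -0.50. At a difference of at least 1 log2 unit, 2562 genes were called (12.6%), of which 2039 rose, 10.0% of those tested, and 523 fell, 2.57%. At 2 units the counts were 758 and 43, and at 3 units 346 and 3. All 5 mice of 16 dpp lay above all 5 of 10 dpp in 4504 genes (22.1%) and below them in 3570 (17.5%), so the ages did not overlap in 39.6% of genes. Without mouse 1 of 16 dpp, 5330 genes rose and 4456 fell, with 1948 and 469 past 1 log2 unit. Many called differences were small: 4175 were under 0.5 log2 units. Rises made up 53.6% of the calls, and 41.1% under quantile normalization (4534 rises and 6500 falls), which lowers the median difference of all genes to -0.11.

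**Figure D1:**
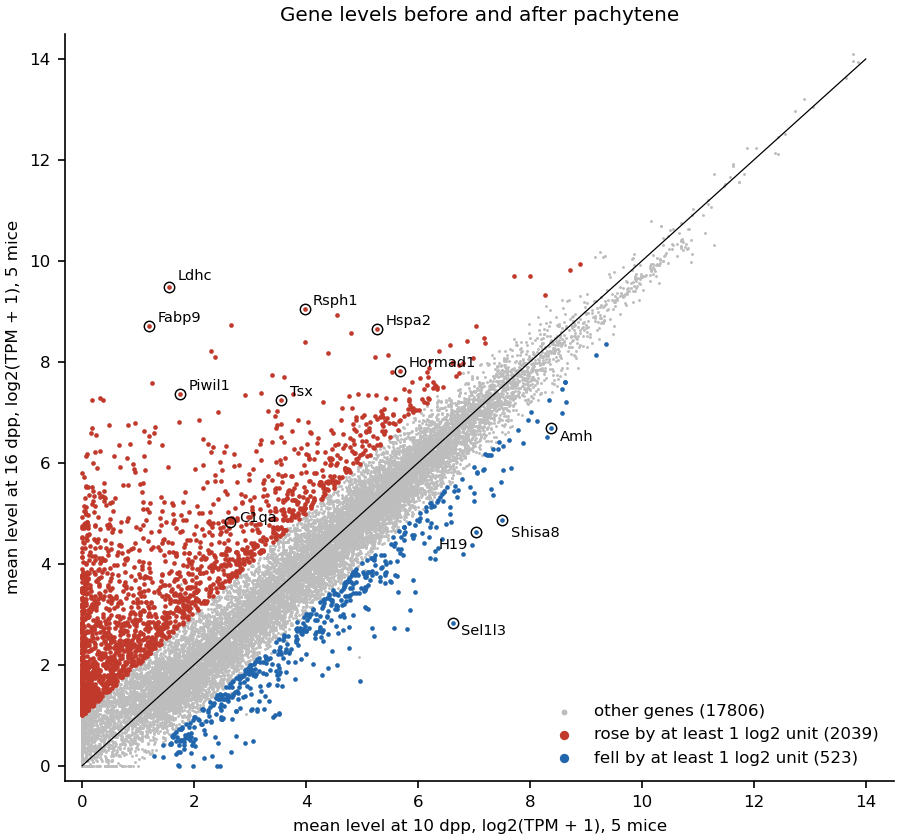
Mean level of each gene at 10 dpp (horizontal) and 16 dpp (vertical), both in log2(TPM + 1) over 5 mice; red points are the 2039 genes that rose by at least 1 log2 unit, blue points the 523 that fell by as much, grey points all others, and the line marks equal levels. The red points fan out from the left edge, where genes were near 0 at 10 dpp, while the blue points stay near the line.

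The largest rises were in genes that stood under 4 TPM in every mouse of 10 dpp, several of them known from sperm. Ldhc (ENSMUSG00000030851, chr7:46861203-46878142), the lactate dehydrogenase subunit of the germ line, was at 2.86, 3.78, 1.01, 1.76 and 1.16 TPM in the 5 mice of 10 dpp and at 1191, 617, 523, 531 and 936 TPM in those of 16 dpp. It rose by 7.93 ± 0.34 log2 units (SE, limma adjusted p = 3.68e-16), the largest rise among protein-coding genes whose ages did not overlap. Every mouse of 16 dpp lay far above every mouse of 10 dpp, with mice 1 and 5 the highest. Fabp9 (ENSMUSG00000027528, chr3:10193621-10197283), a fatty acid binding protein of the sperm head, was at 2.22, 3.74, 0.46, 0.47 and 0.97 TPM at 10 dpp and 692, 381, 302, 329 and 495 TPM at 16 dpp, a rise of 7.51 ± 0.34 (adjusted p = 7.21e-16). Spata4, a gene of the germ line, went from 0.58, 0.25, 0.24, 0 and 0.25 TPM to 263, 128, 103, 122 and 208 TPM, and Crisp2, a cysteine-rich protein of the sperm tail and acrosome, from 1.05, 0.18, 0, 0 and 0.53 TPM to 274, 118, 94.2, 123 and 210.2 TPM. Both rose by close to 7 log2 units, at 6.96 ± 0.29 and 6.87 ± 0.36, and in all 4 genes mouse 1 of 16 dpp was the highest and mouse 3 the lowest.

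The other 8 of the 12 largest rises lay between 6.08 and 7.06 log2 units, and in each the ages were apart. They were Mroh4, the gene 4922502D21Rik, the gluconeogenic enzyme Fbp1, the acrosomal Dkkl1, Zmynd10, which is needed to assemble dynein arms, Pdcl2, a phosducin-like protein, the sperm surface protein Adam2 and Cmtm2a, a chemokine-like membrane protein. Adam2 was at 0, 0.1, 0, 0 and 0.2 TPM at 10 dpp and 117, 61.5, 54.8, 52.5 and 89.4 TPM at 16 dpp. Across the table, 317 genes were under 1 TPM in every mouse of 10 dpp and at or above 3 TPM in every mouse of 16 dpp, and 4 genes went the other way.

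**Figure D2:**
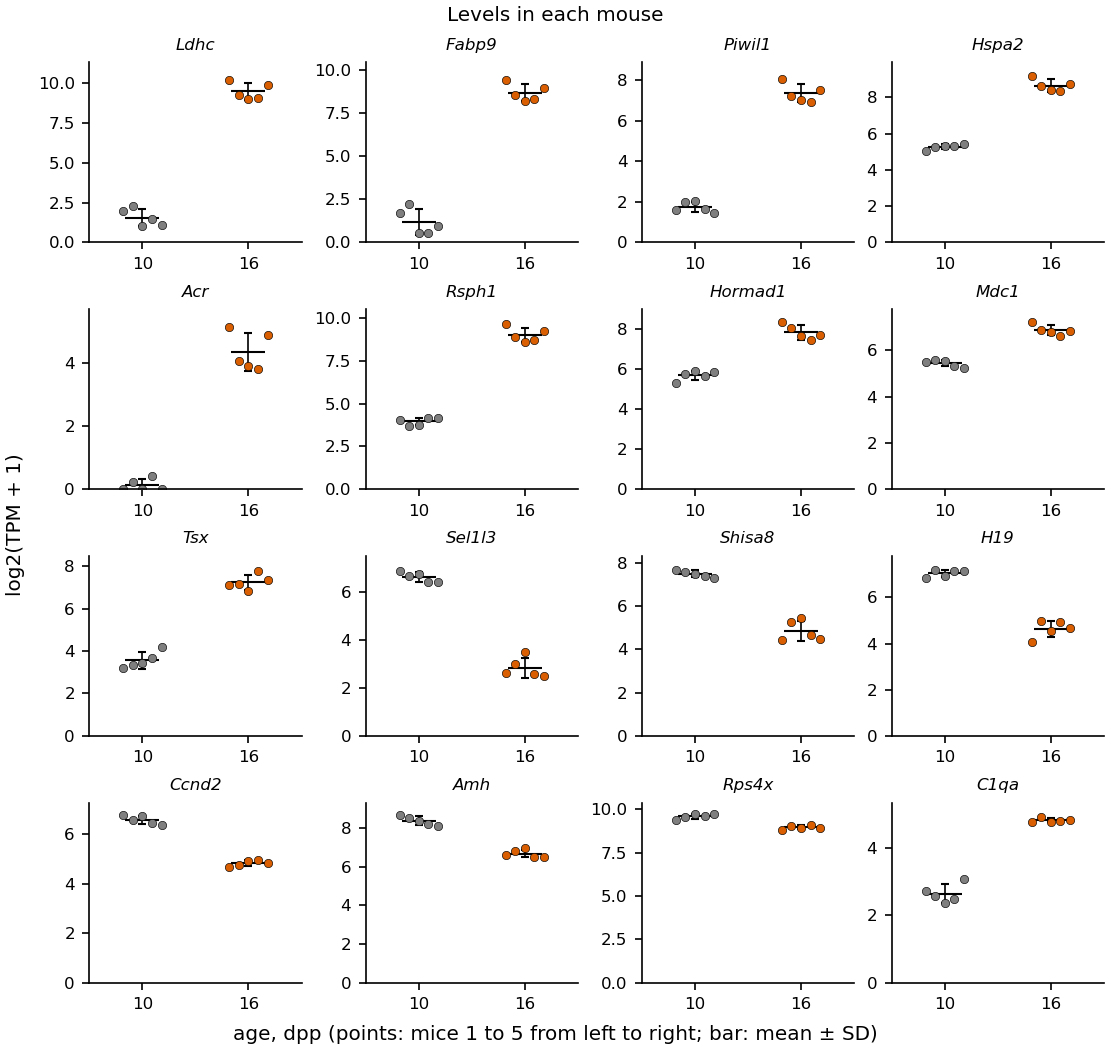
Level of 16 genes in each mouse, in log2(TPM + 1) from 0, with 10 dpp in grey and 16 dpp in orange; points are mice 1 to 5 from left to right and the bars give the mean and SD of 5 mice. The ages are apart in all 16 genes, and mouse 1 of 16 dpp is the highest in Ldhc, Fabp9, Piwil1, Hspa2, Acr, Rsph1, Hormad1 and Mdc1 but not in Tsx.

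Promoter sequences are shown for 4 genes with large rises that held a motif of the MYB or RFX family of transcription factors, 2 families with members among the rises described further on. The 4 were picked after the motifs had been read, and other windows are not shown: among the largest rises, those of Crisp2 and Dkkl1 held none of the motifs, and among the largest falls that of Shisa8 held an RFX-type motif and a CCAAT box. Windows of 300 bases, from 250 bases before to 50 after a RefSeq start on GRCm38.p6, were matched by symbol to 8 of the 12 largest rises and to 7 of the 12 largest falls. The motifs read in every window were these 3, written next, and a cAMP response element (TGACGTCA), E2F motifs (TTTCCCGC and TTTGGCGC) and a STRA8-type motif (CNCCTCAG). The Piwil1 start lies inside the gene's span in GENCODE M21. Capitals mark the MYB-type motif GNCAGTT, the RFX-type motif GTTGCCA and the CCAAT box CCAAT, each read on both strands, and positions count from the start. The strings are given 5′ to 3′ on the gene's strand.
Ldhc, chr7:46861013-46861312, plus strand, MYB-type motif at -214: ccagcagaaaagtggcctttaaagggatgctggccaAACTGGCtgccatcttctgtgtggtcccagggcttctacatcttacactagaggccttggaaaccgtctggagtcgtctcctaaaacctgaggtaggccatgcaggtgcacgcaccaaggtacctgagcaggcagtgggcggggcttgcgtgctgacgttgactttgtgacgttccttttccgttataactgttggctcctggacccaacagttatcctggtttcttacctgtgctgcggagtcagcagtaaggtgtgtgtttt
Piwil1, chr5:128735996-128736295, plus strand, CCAAT box at -169 and MYB-type motif at -75: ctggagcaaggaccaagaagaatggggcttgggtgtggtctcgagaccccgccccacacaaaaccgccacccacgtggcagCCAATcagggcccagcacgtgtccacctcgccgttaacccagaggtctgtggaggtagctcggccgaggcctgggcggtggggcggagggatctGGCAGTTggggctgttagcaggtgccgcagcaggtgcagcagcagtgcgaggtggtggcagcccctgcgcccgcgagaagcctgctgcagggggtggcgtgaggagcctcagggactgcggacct
Spata4, chr8:54600531-54600830, plus strand, RFX-type motif at -6: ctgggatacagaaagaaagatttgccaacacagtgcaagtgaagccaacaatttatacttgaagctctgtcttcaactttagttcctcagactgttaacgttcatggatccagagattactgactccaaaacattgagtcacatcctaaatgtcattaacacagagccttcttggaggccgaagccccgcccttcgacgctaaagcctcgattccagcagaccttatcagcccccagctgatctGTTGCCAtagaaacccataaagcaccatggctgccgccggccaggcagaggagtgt
Pdcl2, chr5:76331107-76331406, minus strand, RFX-type motif at -19: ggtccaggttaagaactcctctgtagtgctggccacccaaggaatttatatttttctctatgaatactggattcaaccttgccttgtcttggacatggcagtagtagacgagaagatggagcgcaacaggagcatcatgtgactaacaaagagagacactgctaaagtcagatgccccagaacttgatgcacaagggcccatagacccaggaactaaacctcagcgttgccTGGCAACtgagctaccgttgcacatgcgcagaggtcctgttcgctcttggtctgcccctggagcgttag
Of all 32851 windows of the table, 12.8% held the MYB-type motif, 4.38% the RFX-type motif, 37.4% a CCAAT box, 1.79% the cAMP response element, 1.56% an E2F motif and 7.94% the STRA8-type motif, and a match is a description of the letters and not of a bound site. The other RefSeq start of Ldhc, chr7:46861237-46861536, held none of the motifs. Shares were also read for genes that rose and for genes that fell, but they are not compared here. The reason is that windows matched only 1003 of the 1311 protein-coding genes that rose by at least 1 log2 unit (76.5%) and 268 of the 384 that fell (69.8%).

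Genes of the synaptonemal complex and the chromosome axis rose almost as a whole. Of 14 tested, 13 rose (92.9%, against 27.7% of all genes), 0 fell, and the median difference was 1.18, against 0.02 over all genes. Sycp1, which forms the transverse filaments of the complex, was at 69.3, 72.5, 79.8, 77.6 and 81.6 TPM at 10 dpp and 263, 209.6, 172, 158 and 182 TPM at 16 dpp. It rose by 1.34 ± 0.13 (adjusted p = 1.18e-09), with no overlap of the ages. The axis proteins Sycp2 and Sycp3 rose by 1.91 ± 0.13 and 1.68 ± 0.11. Hormad1, which marks unsynapsed axes, had the largest rise of the list, from 39.0, 52.9, 58.2, 48.8 and 55.9 TPM to 323, 259, 201, 171 and 204 TPM (2.14 ± 0.15, adjusted p = 6.88e-12). The central element genes Syce1 and Syce3 rose by 1.41 and 1.69, while Syce2, at means of 105 and 125 TPM, was not called (adjusted p = 0.0541). The meiotic cohesins rose less: Smc1b by 0.67 ± 0.10, Stag3 by 0.72 ± 0.11, Rad21l by 0.53 ± 0.15 and Rec8 by 0.29 ± 0.11, the last with overlapping mice. The call of Rec8 (adjusted p = 0.0322) was lost when any 1 of mice 1 or 3 of 10 dpp or mice 1, 2 or 5 of 16 dpp was left out. These genes were already expressed at 10 dpp, and 11 of the 13 rises had their largest step between 10 and 12 dpp.

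Recombination genes differed widely in how far they moved. Of 27 tested, 18 rose (66.7%, against 27.7% of all genes) and 0 fell, with a median difference of 0.56. Cntd1, needed for crossovers to mature, was at 6.53, 9.54, 8.46, 5.97 and 11.2 TPM and then 122, 87.8, 80.7, 69.3 and 80.5 TPM, a rise of 3.26 ± 0.16 (adjusted p = 3.13e-15). Meiob, which binds single-stranded DNA, rose by 2.74, and Msh4, of the complex that stabilizes crossover intermediates, was at 1.42 to 2.18 TPM at 10 dpp and 10.1 to 15.7 TPM at 16 dpp, a rise of 2.36 ± 0.14. Its partner Msh5 rose by 0.89 and the helicase gene Hfm1 by 1.78. Spo11, which makes the double-strand breaks, was at 4.02, 5.40, 3.92, 4.22 and 2.71 TPM at 10 dpp and 34.7, 24.7, 23.1, 19.8 and 27.96 TPM at 16 dpp, a rise of 2.42 ± 0.15 with no overlap. Dmc1, the meiotic strand exchange protein, rose by 0.56 ± 0.12, from a mean of 35.0 to 52.3 TPM, and Prdm9, which places the breaks, by 0.48 with overlapping mice. The 9 that were not called were Mei1, Mei4, Rec114, Ccdc36, Brca2, Tex11, Rnf212, Exo1 and Trip13, with differences between -0.15 and 0.59. Of the 18 rises, 14 had their largest step between 10 and 12 dpp.

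Of 21 genes of the sex body and of DNA damage signalling, 7 rose (33.3%) and 6 fell (28.6%), near the shares of 27.7% and 23.9% over all genes, with a median of 0.09. Mdc1, which spreads the damage mark over the sex chromosomes, was at 44.6, 47.5, 45.02, 39.7 and 37.3 TPM at 10 dpp and 151, 116, 109.6, 98.0 and 115 TPM at 16 dpp, a rise of 1.43 ± 0.13 (adjusted p = 4.54e-10). The ages did not overlap. The kinase Atr rose by 1.17 and the histone gene H2afx, whose phosphorylated form marks breaks, by 0.90 ± 0.09. The kinase Atm fell by 0.35, and the falls of Rad9a, Etaa1, Ubr2, Rnf168 and Hus1 lay between -0.40 and -0.25. Brca1 was not called (means 19.8 and 17.2 TPM, adjusted p = 0.0683). Rad9b, the paralog of Rad9a, rose by 0.87.

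Of the regulators of the pachytene programme, most rose and none fell. Of 20 tested, 13 rose (65.0%, against 27.7% of all genes), each by more than 1 log2 unit, 0 fell, and the median was 1.33. Mybl1, the MYB-family activator of pachytene genes, was at 14.8, 12.9, 10.7, 11.5 and 11.5 TPM and then 31.7, 26.9, 26.2, 26.9 and 30.1 TPM, a rise of 1.15 ± 0.12 (adjusted p = 9.12e-09). The ages did not overlap, and the level was already 20.1 TPM at 12 dpp. Rfx2, which activates genes of cilia and flagella, rose from a mean of 4.65 to 50.4 TPM (3.17), and Rfx4 was at 0.41, 0.08, 0.22, 0.17 and 0.16 TPM and then 18.99, 10.9, 8.43, 8.50 and 13.8 TPM (3.39 ± 0.21). The largest rise was in Kctd19, a partner of Zfp541 in late prophase, at 0.7, 1.51, 0.57, 1.48 and 2.79 TPM at 10 dpp and 131, 87.1, 81.9, 69.7 and 102 TPM at 16 dpp (5.34 ± 0.23, adjusted p = 3.11e-16). Gtf2a1l, a testis form of a general transcription factor, rose by 4.48, the bromodomain gene Brdt by 2.49, Sox30 by 2.48, Zfp541 by 2.09, Tcfl5 by 1.75 ± 0.14 and Crem by 1.31. Rfx3, Taf7l, Spz1, Btbd18, Taf9b, Taf4b and Nrf1 were not called, with differences between -0.17 and 0.49. Of the 13 rises, 8 had their largest step between 14 and 16 dpp and 5 between 10 and 12 dpp.

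PIWI proteins and the factors that make their small RNAs, the piRNAs, which hold transposons in check and are abundant in pachynema, rose as a group. Of 21, 18 rose (85.7%, against 27.7% of all genes) and 1 fell, with a median of 1.13. Piwil1 (ENSMUSG00000029423, chr5:128702524-128755474), the PIWI protein of pachytene piRNAs, was at 2.01, 3.02, 3.07, 2.12 and 1.77 TPM at 10 dpp and 267, 152, 128, 124 and 185 TPM at 16 dpp. It rose by 5.62 ± 0.21 (adjusted p = 8.16e-17), and the ages were far apart. Piwil2, which acts before and during pachynema, rose by 0.99 ± 0.08, with 72.3 to 86.4 TPM at 10 dpp against 139 to 199 TPM at 16 dpp. Piwil4, the PIWI protein of the foetal germ line, was the fall, from 5.23, 5.66, 5.15, 4.99 and 5.70 TPM to 4.03, 3.81, 4.48, 4.13 and 3.09 TPM (-0.38 ± 0.12, adjusted p = 0.0116). Of the Tudor proteins, Tdrd6 rose by 5.11, from a mean of 0.28 to 44.1 TPM, Tdrd5 by 2.48 and Tdrd1 by 1.66. Mael and Mov10l1 rose by 1.17 and 1.04, and Fkbp6 and Pnldc1 were not called. In 16 of the 18 rises the largest step lay between 14 and 16 dpp.

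Of the long precursors from which piRNAs are cut, 76 were in the table. Their median level at 10 dpp was 0.03 on the log2(TPM + 1) scale, so most were in the table only through other ages at which they were higher, and the count of 61 rises and 4 falls follows in part from that filter and is no result about precursors as a class. The precursor pi-17-qC-935 was at 0.25, 0, 0, 0.42 and 0.65 TPM at 10 dpp and 132, 73.0, 65.7, 61.8 and 58.0 TPM at 16 dpp, a rise of 5.93 ± 0.50 (adjusted p = 1.44e-10). The precursor next in size, on chromosome 8 by its name, rose by 4.69 ± 0.20, to 16.4 to 38.2 TPM, and the one after it, on chromosome 11, was listed at 0 in all 5 mice of 10 dpp and at 12.9, 9.08, 6.53, 7.43 and 9.89 TPM at 16 dpp. The share of a mouse's TPM in precursors was 0.00520% to 0.00646% at 10 dpp and 0.0244% to 0.0451% at 16 dpp, without overlap. The 3 largest falls were in precursors named by an Ensembl gene identifier, pi-ENSMUSG00000048732 at -0.78 ± 0.12, pi-ENSMUSG00000021339 at -0.39 and pi-ENSMUSG00000034645 at -0.29, the last not called without mouse 2 of 10 dpp or mouse 4 or 5 of 16 dpp. In 56 of the 61 rises the largest step lay between 14 and 16 dpp.

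**Figure D3:**
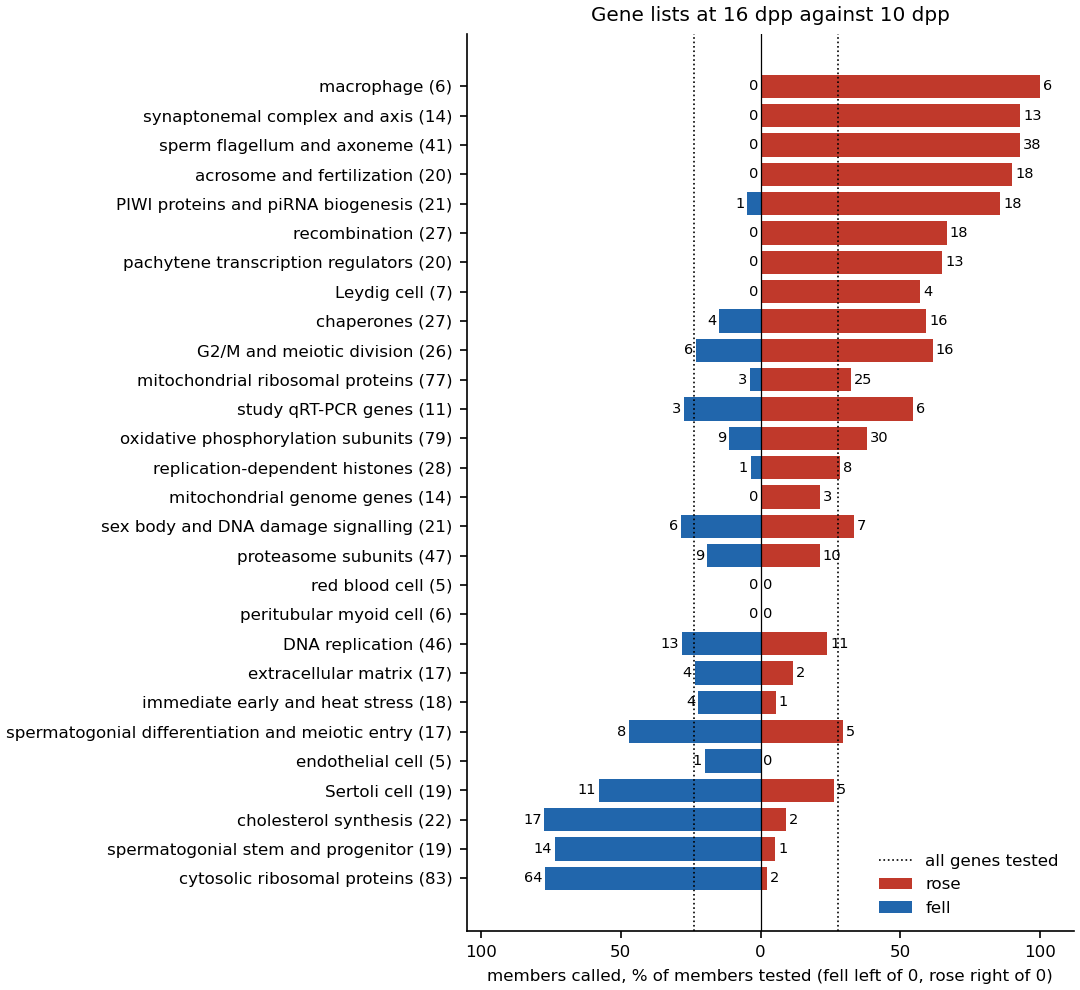
Percent of each gene list that rose (red, right of 0) or fell (blue, left of 0), with the number of members called at each bar and the number tested in parentheses; dotted lines mark the percent of all 20368 genes. Meiotic, piRNA, acrosome and flagellum lists extend to the right, and cytosolic ribosomal proteins, cholesterol synthesis and the spermatogonial stem list to the left.

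Genes of the acrosome and of fertilization, processes of spermatids that form only after both divisions, were among the rises. Of the 34 genes listed, 20 reached the 3 TPM the table requires, and 18 of these rose and 0 fell, with a median of 2.80. Over all genes 27.7% rose and 23.9% fell. Since a gene absent at 10 dpp enters the table only through later ages, the 20 are not all of the list. The median level of the 20 at 10 dpp was 0.98 on the log2(TPM + 1) scale. Many were thus in the table only through other ages at which they were higher, and the count follows in part from that filter. Acr, the protease acrosin, was at 0, 0.17, 0, 0.35 and 0 TPM at 10 dpp and 34.0, 15.5, 13.8, 12.9 and 28.4 TPM at 16 dpp, a rise of 4.22 ± 0.27 (adjusted p = 9.11e-13). The chaperone Clgn, needed for sperm surface proteins, rose by 4.18, and Zpbp2, a binding protein of the egg coat, by 4.09. Tex101 and Ly6k, surface proteins already at 211 and 46.5 TPM at 10 dpp, rose by 1.98 and 2.26. Calr3 and Adam1a were not called. Izumo1, Spaca3, Spam1 and 11 others were not in the table.

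The flagellum and axoneme list was larger. Of 50 genes, 41 were in the table, 38 rose and 0 fell, with a median of 2.45, where 27.7% of all genes rose. The median level of the 41 at 10 dpp was 0.80 on the log2(TPM + 1) scale. Most were thus in the table only through other ages at which they were higher, and the count follows in part from that filter. Rsph1, a radial spoke head protein, was at 15.5, 12.2, 12.7, 16.9 and 17.03 TPM at 10 dpp and 806, 486, 399.9, 432 and 606 TPM at 16 dpp, a rise of 5.07 ± 0.22 (adjusted p = 3.68e-16). The outer arm dynein Dnah8 rose by 3.99 ± 0.26, with 1.09 to 1.5 TPM at 10 dpp against 26.6 to 60.4 TPM at 16 dpp, Cfap206 by 5.07, Odf4 by 5.00, the tektin Tekt1 by 4.55 and Meig1 by 3.76, to a mean of 400.0 TPM. Spag6, at 0.48, 0.2, 0, 0.1 and 0 TPM and 0.22, 0.47, 0.39, 0.93 and 0.37 TPM, was not called, and its ages overlapped. In 35 of the 38 rises, and in 15 of the 18 of the acrosome list, the largest step lay between 14 and 16 dpp.

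By contrast, of 19 genes of the spermatid nucleus and other spermatid markers, 15 were not in the table, among them the protamines Prm1 and Prm2 and the transition proteins Tnp1 and Tnp2. Of the other 4, Tsga8 rose, to 0.55 to 3.30 TPM, and Oaz3 rose by 0.85, from 0.362 to 1.52 TPM.

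Cell cycle genes had both rises and falls. Of 26 genes of G2/M and the meiotic divisions, 16 rose (61.5%) and 6 fell (23.1%), with a median of 0.56. Over all genes 27.7% rose and 23.9% fell, so the share of falls was near that of all genes. Of 46 of DNA replication, 11 rose (23.9%) and 13 fell (28.3%), near the shares over all genes (median 0.01, or -0.05 under quantile normalization). Fbxo43, an inhibitor of the anaphase promoting complex, rose by 2.45 ± 0.21, with 0.13 to 0.36 TPM at 10 dpp against 4.32 to 9.27 TPM at 16 dpp. Ccna1, the cyclin of the first meiotic division, was at 0.19, 0.32, 0.48, 0.99 and 0.34 TPM at 10 dpp and 9.18, 2.39, 4.22, 2.96 and 8.87 TPM at 16 dpp (2.03 ± 0.42, adjusted p = 2.06e-04), with mice 1 and 5 far above the rest. Ccnb2 and Cdk1 rose by 0.69 and 0.56, whereas Ccnb1 fell by 0.51 ± 0.10. The kinase genes Aurka and Aurkc rose by 0.81 and 1.57, the last with overlapping mice, and Aurkb fell by 0.54 ± 0.12. In the replication list, Mcm2 of the replicative helicase fell by 0.51 ± 0.08, with 98.0 to 109.8 TPM at 10 dpp against 66.2 to 79.7 TPM at 16 dpp, while Pcna, the sliding clamp, which also serves repair, rose by 0.38 ± 0.06 and Gins1 by 1.00 ± 0.14.

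Chaperones had 16 rises (59.3%) and 4 falls (14.8%) among 27 (median 0.30), where 27.7% of all genes rose and 23.9% fell. Hspa2, the HSP70 protein of spermatocytes, which takes part in the taking down of the synaptonemal complex, was at 31.6, 37.4, 38.6, 38.9 and 41.6 TPM at 10 dpp and 571, 386, 336, 318 and 431 TPM at 16 dpp, a rise of 3.38 ± 0.15 (adjusted p = 9.08e-16). Cct6b, the testis subunit of the CCT chaperonin, rose by 4.13 ± 0.26, and its general counterpart Cct6a was not called, at means of 209.8 and 209 TPM. Hsp90aa1 rose by 0.92 ± 0.08 and Hsp90ab1 fell by 0.45. The heat shock factor gene Hsf5 rose by 3.83 and Hsf1 by 0.68, and Hsf2 fell by 0.32. In the proteasome, 10 of 47 subunits rose (21.3%) and 9 fell (19.1%), again near the shares over all genes (median -0.01). Psma8, the subunit of the spermatocyte proteasome, rose by 3.54 ± 0.16, with 9.01 to 12.0 TPM at 10 dpp against 95.8 to 205 TPM at 16 dpp, and Psme1, of the immune-type activator, fell by 0.62 ± 0.12.

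Most genes of cytosolic ribosomal proteins fell. Of 83 cytosolic ribosomal proteins, 64 fell and 2 rose, with a median of -0.30, a small but uniform change. Summed over the list, they made up 70557 to 78172 TPM at 10 dpp and 57974 to 62423 TPM at 16 dpp, without overlap. The rises were Rpl10l and Rpl39l, both autosomal copies of X-linked genes, at 1.67 ± 0.14 and 1.38 ± 0.12. Rps4x, an X-linked gene, had the largest fall, from 668, 743, 849, 790.0 and 849.8 TPM to 445, 527, 472, 539.8 and 484 TPM (-0.66 ± 0.13, adjusted p = 1.18e-04). Under quantile normalization, 26 of the 83 fell and the median was -0.10, beside 6500 falls among all 20368 genes and a median of -0.11. Taken relative to the median of all genes, the list's median was -0.32 in the main fit and 0.006 under quantile normalization. The fall relative to other genes was thus not seen under that setting. In 53 of the 64 falls the largest step was between 10 and 12 dpp. Of 77 mitochondrial ribosomal proteins, 25 rose (32.5%) and 3 fell (3.90%), with a median of 0.09, and 0 were called past 1 log2 unit. Over all genes 27.7% rose and 23.9% fell, so the share of rises was near that of all genes. Under quantile normalization 18 of the 77 rose and 6 fell.

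In energy metabolism, 30 of 79 nuclear subunits of oxidative phosphorylation rose (38.0%) and 9 fell (11.4%), with a median of 0.11. The shares over all genes were 27.7% and 23.9%. The large changes were in testis forms. Cox8c, a testis subunit of cytochrome oxidase, was at 3.49, 7.04, 2.86, 2.38 and 6.68 TPM at 10 dpp and 437, 263, 220.4, 195 and 309.6 TPM at 16 dpp, a rise of 5.74 ± 0.32 (adjusted p = 4.33e-14). Cox7b2 rose by 2.90 and Cox6b2 by 2.88 ± 0.16, and X-linked Cox7b fell by 0.72 ± 0.13. Of 14 genes of the mitochondrial genome, 3 rose (mt-Nd4 by 0.37 ± 0.13, mt-Nd4l and mt-Co1) with overlapping mice. The count rested on single mice: 0 rose without mouse 4 or without mouse 5 of 16 dpp, and 7 without mouse 3 of 16 dpp. The call of mt-Nd4 was also lost under quantile normalization, where the median of the 14 went from 0.14 to -0.02. The share of TPM in the mitochondrial genome, 8.92% ± 0.50 at 10 dpp and 9.94% ± 1.22 at 16 dpp (SD, n = 5), gave adjusted p = 0.138 in a two-sided exact permutation test, and 0.0212 without mouse 3 of 16 dpp.

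Genes of cholesterol synthesis mostly fell: of 22 genes, 17 fell (77.3%, against 23.9% of all genes) and 2 rose, with a median of -0.48. The regulators Srebf2 and Insig1 fell by 0.93 and 1.21, and the enzyme genes Cyp51, at 38.9, 38.6, 41.4, 31.7 and 30.6 TPM and then 17.8, 22.4, 17.8, 20.6 and 19.5 TPM, by 0.85 ± 0.12 (adjusted p = 1.10e-06) and Hmgcs1 by 0.48 ± 0.07. Ebp and Tm7sf2 rose by 0.42 and 0.48, and the call of Tm7sf2 (adjusted p = 0.0237) was lost without any 1 of mice 4 and 5 of 10 dpp or mice 3, 4 and 5 of 16 dpp.

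Many rising genes have a relative that most cells use, often on the X, and 24 such pairs of a germ cell gene and its general paralog were in the table. Rad21 stands in 2 of the pairs. The germ cell gene rose in 22 of the pairs and the general gene fell in 15, and 14 pairs moved in opposite directions. Over all genes 27.7% rose and 23.9% fell. The pairs were chosen with earlier results of these data known. Some germ cell genes were near 0 at 10 dpp, with means of 0 TPM for Prps1l1, 0.07 for Pgk2 and 0.18 for Fam50b. Such genes entered the table only through other ages, so their rises follow in part from that filter. Pairs of G6pd2, Ubl4b, Gapdhs and Aldoart1 were not counted, as these genes were not in the table. The falls of Cetn2, Fam50a and Rbmx were no longer called when certain single mice were left out, Cetn2 without mouse 1 of 16 dpp. In 23 pairs the germ cell gene's share of the summed TPM of the pair did not overlap between the ages. Of all single genes, 39.6% did not overlap in level. With the general gene on the X (15 pairs), the germ cell gene rose in 13 and the general gene fell in 9, and with it on an autosome (9 pairs) the counts were 9 and 6. Reads of near-identical copies may have been divided between members, so levels within a pair are uncertain.

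The pair of lactate dehydrogenases changed most in share. Ldhc made up 1.64% ± 0.882 (SD, n = 5) of the pair at 10 dpp and 72.7% ± 2.95 at 16 dpp. Ldha, the muscle-type subunit, rose as well, with 123 to 129 TPM at 10 dpp against 216 to 383 TPM at 16 dpp (1.09 ± 0.15). Cetn1, a centrin of the germ line, made up 1.02% ± 0.761 and then 61.5% ± 12.0 of its pair with X-linked Cetn2, which fell by 0.26 ± 0.09. Pdha2, the autosomal copy of the X-linked pyruvate dehydrogenase gene Pdha1, went from 12.7% ± 1.39 to 66.6% ± 6.33, while Pdha1 was not called. Slc2a3, a glucose transporter, rose by 4.42 ± 0.23, to 546, 265, 242, 272 and 453 TPM, and Slc2a1, the general transporter, by 0.37 ± 0.11.

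Other pairs were in transition. Prps1l1, for nucleotide synthesis, was listed at 0 in all 5 mice of 10 dpp and at 47.5, 22.3, 18.4, 24.7 and 45.1 TPM at 16 dpp, and its X-linked relative Prps1 rose by 0.25 ± 0.07. Pgk2, a glycolytic kinase, was at 0.19, 0, 0, 0.16 and 0 TPM and then 23.3, 8.32, 6.91, 11.6 and 21.2 TPM, and still made up 12.2% ± 6.36 of its pair with X-linked Pgk1, which was not called. D1Pas1, an RNA helicase, rose by 2.43 ± 0.16 as X-linked Ddx3x fell by 0.51 ± 0.09. Among the cohesins, Rad21 fell by 0.66 ± 0.05 and Stag2 by 0.53 ± 0.09, against the rises of the meiotic forms given above. Utp14b and its X-linked relative Utp14a were not called, and theirs was the pair whose shares overlapped, at 31.1% ± 2.77 and 31.8% ± 1.84. Rps4l, which the annotation lists as a pseudogene, was not called.

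**Figure D4:**
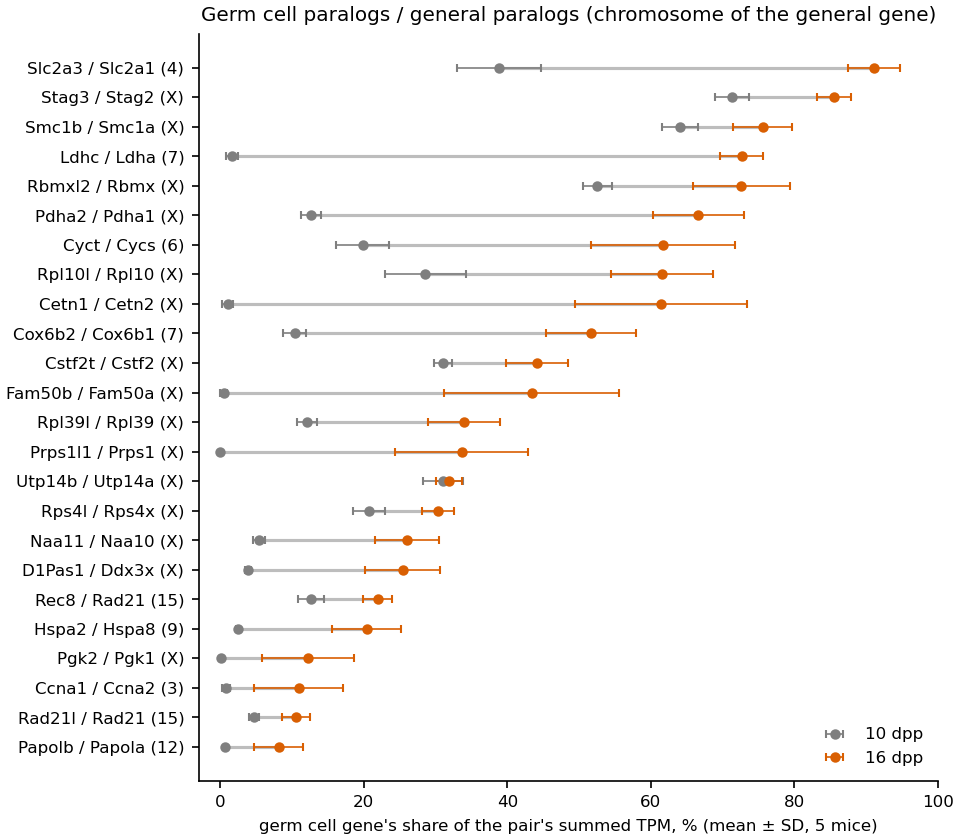
Share of each pair's summed TPM held by the germ cell gene, in percent, as mean and SD of 5 mice at 10 dpp (grey) and 16 dpp (orange), with the chromosome of the general gene in parentheses. The orange points lie to the right of the grey ones, furthest for Ldhc, Cetn1, Pdha2 and Slc2a3, and Utp14b stays in place.

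The falls were smaller and led by other genes. Sel1l3 (ENSMUSG00000029189, chr5:53107083-53213927) was at 115, 98.8, 108, 84.4 and 83.9 TPM at 10 dpp and 5.17, 6.97, 10.4, 4.89 and 4.61 TPM at 16 dpp, a fall of 3.78 ± 0.16 log2 units (adjusted p = 2.88e-16), the largest among protein-coding genes. Lpcat2, an enzyme of membrane lipids, fell by 3.28 ± 0.16, to 1.52 to 3.41 TPM, and Epha2, a receptor tyrosine kinase, by 3.08 ± 0.19, from 70.2, 60.2, 59.5, 43.4 and 44.1 TPM to 4.82, 5.68, 9.12, 5.50 and 3.70 TPM. These were the 3 falls past 3 log2 units, and in none did the ages overlap. Slc1a6, Lpl, Islr2, Shisa8, Socs2, Serpine2, Gsg1l, Lgals7 and Ins2 made up the other 9 of the 12 largest and lay between -2.84 and -2.49. Among them, Shisa8 was at 207, 194, 181, 169.9 and 158 TPM and then 20.7, 37.1, 43.1, 24.8 and 21.4 TPM, and Lpl, lipoprotein lipase, at 47.9 to 65.7 and 6.11 to 12.3 TPM. In the falls of at least 1 log2 unit, mouse 3 of 16 dpp was the highest of its age in 52.0% and mouse 1 the lowest in 39.8%.

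Markers of spermatogonial stem and progenitor cells fell, by small amounts. Of 19, 14 fell (73.7%, against 23.9% of all genes), 1 rose, and the median was -0.44. Gfra1, the receptor for the niche factor GDNF, was at 16.5, 10.2, 10.6, 8.40 and 9.96 TPM and then 6.30, 7.39, 9.04, 5.30 and 6.65 TPM, a fall of 0.60 ± 0.15 (adjusted p = 0.0019) with overlapping mice. Zbtb16 fell by 0.43 ± 0.08, Sall4 by 0.57, the integrin gene Itga6, which somatic cells of the testis share, by 1.11, and Shisa6 by 1.68 ± 0.16, the largest fall. Etv5 was not called. The rise was Id4, an inhibitor of differentiation, which was at 9.42, 7.80, 8.65, 9.67 and 8.74 TPM at 10 dpp and 50.1, 43.8, 35.0, 33.8 and 39.8 TPM at 16 dpp (2.06 ± 0.10, adjusted p = 8.07e-15), and at 61.8 TPM in the separately normalized adult pachytene samples (mean, n = 4).

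Genes of spermatogonial differentiation and entry into meiosis were mixed, with 8 of 17 that fell (47.1%) and 5 that rose (29.4%), and a median of -0.17. Over all genes 23.9% fell and 27.7% rose, so the share of rises in the list was near that of all genes. Ccnd2, a cyclin of differentiating spermatogonia, had the largest fall, from 109, 94.6, 105, 88.3 and 81.8 TPM to 24.4, 25.8, 29.5, 30.2 and 27.8 TPM (-1.76 ± 0.10, adjusted p = 3.72e-14). Stra8, which starts meiosis, fell by 0.38 ± 0.10, Kit by 0.27 ± 0.08 and Sohlh1 by 0.65 ± 0.11. Dmrt1 and the DNA methyltransferase genes Dnmt3a and Dnmt3b fell by 0.73, 0.70 and 0.69. The rises were Meioc (1.22 ± 0.11) and its partner Ythdc2 (0.81), which keep cells in meiotic prophase, with Dmrtb1 (1.17), Prss50 (1.05) and Gm4969 (0.31).

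Markers of some somatic cells moved with the ages too. Of 19 Sertoli markers, 11 fell (57.9%) and 5 rose (26.3%), with a median of -0.23. Over all genes 23.9% fell and 27.7% rose, so the share of Sertoli rises was near that of all genes. Amh, the hormone of the immature Sertoli cell, had the largest fall, from 414, 363, 337, 294 and 276 TPM to 95.4, 112.3, 124, 91.7 and 90.5 TPM (-1.70 ± 0.14, adjusted p = 5.70e-11). Wt1 and Gata4 fell by 1.12 ± 0.09 and 1.14, Sox9 by 0.67 ± 0.08 and Rhox8 by 1.02. Rhox5, Gata1, Trf, Defb19 and Amhr2 rose, by 0.97, 0.96, 1.18, 0.63 and 0.21. Cst9 and Cst12, at means of 1333 and 1412 TPM at 10 dpp, were not called. What part these cells had in the falls of other genes was not tested.

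All 6 macrophage markers rose, with a median of 1.59, and their summed TPM was 27.9 to 38.1 at 10 dpp and 106 to 115 at 16 dpp. C1qa, of the first complement component, was at 5.62, 4.99, 4.14, 4.57 and 7.52 TPM and then 26.6, 29.4, 26.4, 27.0 and 27.7 TPM (2.18 ± 0.22, adjusted p = 4.58e-09), and Csf1r rose by 0.87 ± 0.12. In all 6 the largest step lay between 10 and 12 dpp. Of 7 Leydig markers, 4 rose and 0 fell, with summed TPM of 168 to 320 at 10 dpp and 244 to 487 at 16 dpp. Leaving out mouse 2 of 10 dpp left 2 rises, and leaving out mouse 1 or 4 of 16 dpp gave 3 rises and 1 fall. Hsd3b6, of the adult-type Leydig cell, was at 0.2, 0.99, 0.32, 1.85 and 3.61 TPM and 52.4, 26.8, 35.8, 58.9 and 43.0 TPM (4.35 ± 0.39), while Cyp17a1 ranged from 3.76 to 94.6 TPM among the 16 dpp mice and was not called, nor were Star and Cyp11a1. Of 6 peritubular myoid markers (863 to 1357 TPM in sum at 10 dpp, 858 to 1590.3 at 16 dpp) and 5 of red blood cells (170.4 to 482 and 287 to 436 TPM) 0 were called, and of 5 endothelial markers (60.1 to 99.8 and 55.8 to 75.6 TPM) Kdr fell (-0.81 ± 0.18). Over all genes 51.6% were called (27.7% rose and 23.9% fell), so the myoid, red blood cell and endothelial lists were called less often. Their median differences were 0.28, 0.29 and -0.07 in that order, against 0.02 over all genes. The lack of calls thus does not show that they moved less. No marker of these lists was at 0 in all mice. Among 17 genes of the extracellular matrix 2 rose (11.8%, Mgp by 0.76 ± 0.15 and Dcn) and 4 fell (23.5%, Fn1 by 0.75). Among 18 immediate early and heat stress genes 1 rose (5.56%, Zfp36) and 4 fell (22.2%, Jund by 0.73). In both lists the share of falls was near the 23.9% over all genes, and the share of rises was below the 27.7%.

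Counts on the X chromosome leaned to falls. Of 652 X-linked genes, 86 rose (13.2%) and 224 fell (34.4%), with a median difference of -0.17, and of 14210 autosomal genes 31.2% rose and 26.7% fell, with a median of 0.03. Under quantile normalization 64 X-linked genes rose and 293 fell (median -0.25), and the autosomal counts turned over, to 3770 rises and 4641 falls (median -0.06). Single autosomes ranged from 27.9% (chromosome 18) to 35.9% (chromosome 17) risen and from 21.9% (chromosome 11) to 35.6% (chromosome 18) fallen, so for falls chromosome 18 was as high as the X. The share of a mouse's TPM in X-linked genes was 3.14% ± 0.04 at 10 dpp and 2.66% ± 0.15 at 16 dpp (SD, n = 5). All 5 mice of 16 dpp were below all 5 of 10 dpp (difference -0.48 points, two-sided exact permutation test, adjusted p = 0.0159). With 5 against 5 mice that test cannot give a raw p below 0.00794.

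**Figure D5:**
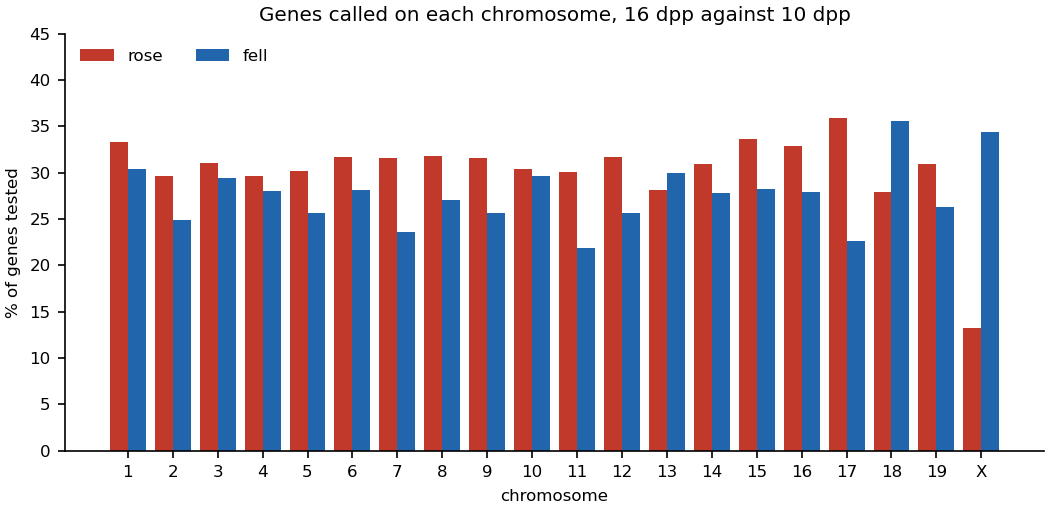
Percent of genes tested that rose (red) and fell (blue) on each autosome and the X, from 0. The X has the lowest red bar, 13.2%, and a blue bar of 34.4% that chromosome 18 matches with 35.6%.

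At 1 log2 unit or more, 30 X-linked genes rose (4.60%) and 23 fell (3.53%), beside 10.5% and 2.72% of autosomal genes. Tsx (ENSMUSG00000031329, chrX:103414467-103424580), a testis-specific gene next to the X inactivation centre, was at 8.10, 9.10, 9.83, 11.6 and 17.2 TPM at 10 dpp and 138, 140.0, 113, 218 and 160.0 TPM at 16 dpp, a rise of 3.68 ± 0.17 (adjusted p = 1.47e-15). Gm9112 rose by 3.72 ± 0.21 and Gm3880 by 3.39 ± 0.28. Of the 30 rises, 23 had their largest step between 10 and 12 dpp, against 24.4% of all rises of this size, and mouse 4 of 16 dpp, not mouse 1, was most often the highest (46.7%). The falls were led by Bex2, from 326, 306, 311, 310.3 and 331 TPM to 74.4, 102, 110.4, 81.9 and 84.5 TPM (-1.81 ± 0.10), the ferroxidase Heph (-1.64 ± 0.19) and Nexmif (-1.47 ± 0.10).

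On the Y, 20 genes were in the table, 2 rose (10.0%) and 5 fell (25.0%). Over all genes 27.7% rose and 23.9% fell, so the share of Y-linked falls was near that of all genes. Zfy1 and Zfy2, zinc finger genes with roles in meiotic checkpoints, rose by 0.93 ± 0.14 and 0.93 ± 0.16, to no more than 4.31 and 4.10 TPM in any mouse of 16 dpp. Kdm5d, Uty, Ddx3y and Uba1y fell by 0.52, 0.44, 0.41 and 0.27. Rbmy fell by 0.35 ± 0.14 (adjusted p = 0.0422), a call that was lost when any 1 of mice 1, 3 and 5 of 10 dpp or mice 3 and 5 of 16 dpp was left out. Eif2s3y and Usp9y were not called.

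Long non-coding genes of the Ensembl annotation rose more often than they fell. Of 787, 286 rose (36.3%) and 85 fell (10.8%), with 171 and 17 past 1 log2 unit, and the median was 0.34. Over all genes 27.7% rose and 23.9% fell. The median level of these long non-coding genes on the log2(TPM + 1) scale was 1.36 at 10 dpp and 2.50 at 18 dpp. Many were thus in the table only through other ages at which they were higher, and the count may follow in part from that filter. Under quantile normalization 192 rose and 136 fell, and the median was 0.03. The largest rise was in 1700029M20Rik (ENSMUSG00000086788, chr4:135626655-135630198), at 0.96, 0.76, 0.58, 0.95 and 1.43 TPM at 10 dpp and 165, 106, 81.8, 86.8 and 129 TPM at 16 dpp (5.85 ± 0.27, adjusted p = 1.01e-15). H19 (ENSMUSG00000000031, chr7:142575529-142578143), the imprinted RNA of growing tissues, had the largest fall, from 112.3, 144, 119, 143 and 139 TPM to 15.7, 30.4, 22.3, 29.2 and 24.3 TPM (-2.41 ± 0.16, adjusted p = 1.72e-12). The ages were apart in both. Of the NONCODE genes, 1037 rose (19.7%) and 829 fell (15.7%), with a median of 0.01, and under quantile normalization the order turned, with 632 rises, 1521 falls and a median of -0.22. NONMMUG003663, the largest rise, was listed at 0 in 4 mice of 10 dpp and at 111, 40.0, 42.6, 54.0 and 95.2 TPM at 16 dpp, and NONMMUG015059, the largest fall, was at 55.1 to 72.0 TPM at 10 dpp against 7.04 to 15.8 TPM at 16 dpp. The NONCODE share of TPM was 9.33% ± 0.24 at 10 dpp and 9.77% ± 0.88 at 16 dpp (SD, n = 5, two-sided exact permutation test, adjusted p = 0.317), and the adjusted p was 0.0212 without mouse 1 of 16 dpp. Among 394 pseudogenes, 77 rose (19.5%) and 53 fell (13.5%). Whether the counting used strand is not stated, so genes that overlap on opposite strands are uncertain.

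More genes were expressed at 16 dpp. At 3 TPM or more, 14842 ± 162 genes were detected per mouse at 10 dpp and 15585 ± 153 at 16 dpp (SD, n = 5), a difference of 743 with no overlap (two-sided exact permutation test, adjusted p = 0.0159). By amount of RNA rather than by fold, other genes led. The largest gains of mean TPM among called genes were in mt-Co1, NONMMUG000271, mt-Nd4, ubiquitin Ubb and Ldhc. Ubb was at 2410.0, 2604, 2426, 2474 and 2526 TPM and then 3612, 3246, 3464, 3181 and 3361 TPM, a rise of 0.44 ± 0.06 that was not called under quantile normalization. NONMMUG000271, of the NONCODE annotation, overlapped between the ages, and its call (adjusted p = 0.039) was lost when any 1 of 6 mice was left out. The largest losses were in Aard, Eef1a1, Gstm2, Clu and Gstm1. Aard, a Sertoli gene, went from 2567, 2484, 2516, 2415 and 2563 TPM to 1169.8, 1349, 1472, 1244 and 1180.2 TPM (-0.97 ± 0.09), the glutathione transferase genes Gstm1 and Gstm2 fell by 0.76 ± 0.11 and 0.89 ± 0.10, and the elongation factor Eef1a1 by 0.31 ± 0.05. Clu overlapped between the ages, and its call was lost without mouse 1 of 10 dpp or mouse 1 or 5 of 16 dpp.

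The ages between place these changes in time. Of the 2039 genes that rose by at least 1 log2 unit, the largest of the steps between 10, 12, 14 and 16 dpp was the last in 73.6% and that between 10 and 12 dpp in 24.4%. Of the 523 that fell by as much it was that between 10 and 12 dpp in 77.8%. Ldhc, for example, had means of 23.4 TPM at 12 dpp, 74.1 at 14 dpp and 2396 at 18 dpp, and Sel1l3 of 27.1, 21.2 and 2.65. The adult pachytene samples, from a table normalized separately, held 86.1% of the genes that rose by at least 1 log2 unit at 3 TPM or more in all 4 samples, 11.1% of those that fell by as much, and 55.7% of all genes. Of the 30 X-linked rises of this size, 7 were at that level in adult cells (23.3%), and of the autosomal rises 87.4%, beside 14.0% and 65.3% of all X-linked and autosomal genes. Tsx, at 154 TPM at 16 dpp and 142 at 18 dpp, was at 18.7 TPM in adult cells, and Ldhc was at 6852 TPM.

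Of the 11 genes tested by the study with qRT-PCR, which the study chose on these samples and which are therefore no independent evidence of direction, 6 rose and 3 fell here. Hspa2, Mdc1, Cmtm2a, Spink2, Adam3 and Cdk2 rose, Cdk2 by 0.14 ± 0.05 with overlapping mice. Cxxc5 fell by 1.94 and Ndufb9 by 0.13. Cct2 and Psmc5 were not called.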

How the data were processed

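Germ cells of both testes of single C57BL/6J mice were profiled by poly-A RNA-seq. The authors aligned reads with Bowtie 1.0.0 to Ensembl, NONCODE and piRNA precursor transcripts, quantified them with RSEM 1.2.8, and deposited TPM for every transcript of the juvenile mice and every gene of the adult samples. The gene table holds genes at 3 TPM or more in at least 1 juvenile mouse, and the values the authors deposited in it are not plain TPM but a score. The natural log of that score + 1 was used as log2(TPM + 1): transcripts summed per gene gave the same TPM within 0.2 for 20288 genes, and 80 genes differed by more. A further deposited column of the gene table holds the authors' assignment of genes to substages, and was not used. Neither depth nor strandedness is given in the sources used here.

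Differences were fitted in R 4.3.3 with limma 3.58.1 (age as a factor over 28 mice of 6 ages, prior variance following mean level, Benjamini-Hochberg over all 20368 genes, threshold 0.05). Same-numbered mice of the ages share an index sequence in the labels but no animal, litter or stated batch, and their deviations from the age means correlated at -0.03 to 0.03, so mouse number was no term of the fit. In simulated data for this comparison, 91.5% of 200 genes changed by 1 log2 unit were recovered among 20368 genes, and 6.63% of calls were false. The 200 were drawn from genes not near 0, all other genes were unchanged, and each gene had the same normal spread at every age. In the real data 51.6% of genes were called and many were near 0, so these rates need not hold there. Values per mouse (4 of them) were compared by exact permutation, with p adjusted over the 4. P-values measure the spread between mice of a single strain.

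Positions are GRCm38 coordinates of GENCODE M21, in which 129 Ensembl genes of the table had no match. Promoter windows came from RefSeq. Other steps used Python 3.11.15 (scipy 1.17.1, pandas 2.3.3, numpy 2.4.6, and matplotlib 3.10.9 for plots).

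The genes named were the 12 largest rises and falls without overlap between ages among protein-coding genes with a symbol; in each list the first 3 members and those with the largest called rise and fall (for lists given by a name pattern, only the latter); every germ cell and general gene pair; the 3 largest rises and falls of long non-coding, NONCODE, piRNA precursor and X-linked genes; every Y-linked gene; and the 5 largest gains and losses of mean TPM. Other list members are examples chosen after their values were seen. Members and lists were chosen with earlier results of these data known. Alternatives were other pseudocounts, filters and normalizations, a fit without a trend in the prior variance, fits of subsets of mice, a replicate block, and leaving out each mouse.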

Additional observations from a re-analysis of the deposited data

Results flagged for a closer look

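A single mouse stood apart from the other 4 of its age by Dixon's test in 25 of 444 groups of 5 mice examined (5.63%), where chance flags about 1 in 20. Mouse 3 of 10 dpp and mouse 1 of 16 dpp accounted for 6 each, mouse 2 of 10 dpp for 5 and mouse 3 of 16 dpp for 0.

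Mouse 1 of 16 dpp was the lowest for the NONCODE share of TPM, at 8.27% against 9.85% to 10.4% in the others, and for Fam50a, at 28.95 TPM (others 34.7 to 36.7). It was the highest for the germ cell helicase Ddx4 at 336.86 TPM (others 215 to 249.6), for the cohesin Rad21l at 23.82 (15.3 to 16.5), for the polyadenylation factor Cstf2t at 43.98 (32.1 to 34.7) and for the piRNA precursor pi-17-qC-935 at 131.97 (58.0 to 73.0). Among the other mice of 16 dpp, mouse 4 was the highest for the matrix protein Mgp at 330.65 TPM (281.6 to 291.6) and for Rpl10 at 119.01 (85.7 to 92.6), mouse 5 for the histone gene Hist1h2ap at 4.30 (0 to 1.23) and mouse 2 for Lpl at 12.27 (6.11 to 7.31).

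At 10 dpp, mouse 2 was the lowest for the mitochondrial genome share of TPM, at 8.04% against 9.01% to 9.25%, and for mt-Nd4, at 3382 TPM (3795 to 3881). It was the highest for Ins2 at 28.92 TPM (15.9 to 17.2), for Cmtm2a at 0.24 and for NONMMUG003663 at 1.01, both at 0 in the others. Mouse 3 was the lowest for Cct6b at 0.14 TPM (0.72 to 0.84), Naa10 at 34.63 (40.6 to 41.9), Ccna2 at 48.32 (57.5 to 60.4) and 4922502D21Rik at 0 (0.16 to 0.19), and the highest for 1700042G15Rik at 0.46 and Gm4017 at 0.96, both at 0 in the others. Mouse 1 was the highest for Gfra1 at 16.54 TPM (8.40 to 10.6) and Gm38399 at 5.67 (3.69 to 4.06), mouse 5 for Gm9112 at 18.93 (6.18 to 8.14) and mouse 4 for the Y-linked gene Gm47283 at 258.27 (129 to 149).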

How the results depend on the processing

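Under every alternative run, more genes rose than fell, except quantile normalization, which moved the median of all genes from 0.02 to -0.11. That setting gave 4534 rises and 6500 falls (41.1% of calls rises, against 53.6%). With mice 4 and 5 alone, 3003 genes rose and 2157 fell. With a pseudocount of 5, 1194 genes were called at 1 log2 unit or more, and with 0.1, 2716 rose and 752 fell by as much. Leaving out single mice gave 5330 to 5545 rises and 4456 to 4872 falls. The mitochondrial share differed by 0.75 to 1.497 points and the NONCODE share by 0.28 to 0.82 when single mice were left out. The former passed the threshold without mouse 3 of 16 dpp (1.497, exact permutation test, adjusted p = 0.0212) and the latter without mouse 1 of 16 dpp (0.82, adjusted p = 0.0212). The cause was not tested. The X-linked share differed by -0.52 to -0.43 points. Mouse numbers mark a shared index sequence but did not pair the mice: no age had every mouse correlate best with its own number, and with the replicate block 5516 genes rose and 4668 fell, with 2024 and 511 past 1 log2 unit. Of 218 named genes, 207 kept direction and side of the threshold with the block, 208 under quantile normalization, 193 with mice 1 to 3 alone and 181 with mice 4 and 5 alone. None of the 218 was called in the opposite direction under these alternatives. Under quantile normalization the medians of the DNA replication list (-0.05), histones (-0.31), mitochondrial genome genes (-0.02), NONCODE genes (-0.22) and autosomal genes (-0.06) were below 0. Of these, the histone and NONCODE medians also lay below the -0.11 of all genes under that setting, and the others lay above it. TPM keeps no depth, so small differences of low genes could not be weighed by read number.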
